A study of Mus musculus with 12 samples.

Results

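Male and female livers differ in the expression of many genes, and here that difference was measured in mice conceived by IVF (in vitro fertilization, the joining of egg and sperm in a dish). The comparison used 6 of the 12 liver libraries of the series, 3 from IVF males and 3 from IVF females, and kept autosomal genes only. Of 13204 genes that passed a filter on low counts, 12776 lay on autosomes. Genes on the X and Y chromosomes (406 tested) and genes with no assigned autosome (22 tested) were fitted with the rest and then left out. All animals were 39 weeks old. IVF males and IVF females were bred by IVF from CF1 females and B6SJL males, so that every animal carried a mixed CF1 and B6SJL background. RNA was taken from a snap-frozen piece of each liver. The natural males and natural females, 3 libraries each, came from natural conception between the same strains. They served for comparison and, in the test used here, entered the low-count filter, the scaling and the estimate of the spread. Messenger RNA was selected by its poly-A tail and sequenced, and each value is a count of reads per gene.

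In the rodent liver, sex differences in gene expression are set largely by the rhythm in which the pituitary releases growth hormone. Males receive it in pulses separated by gaps, and females almost continuously. Growth hormone acts through its receptor and the transcription factor STAT5B. The repressor BCL6, stronger in males, and CUX2, a factor of the female liver, sharpen the difference. Many of the genes concerned encode enzymes of drug, steroid and bile acid metabolism and secreted carriers of pheromones.

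The 6 libraries held from 6826534 to 22073863 counts. The smallest, IVF female replicate 1, stood apart. Its log2 levels correlated with those of the other IVF females at r = 0.947 and 0.948 across genes, against 0.982 for the other pair and 0.974 to 0.977 among IVF males. The ribosomal RNA precursor Rn45s took 0.190% of its counts, against 1.63% to 3.03% in the other 5 libraries. All 6 libraries matched their labelled sex. The 12 markers of hepatocytes, the main cell type of the organ, summed to 137899 to 147621 CPM in IVF females and 110043 to 122231 in IVF males, with none at 0 in either group. The unit CPM is a gene's count divided by its library's size in megareads, with library sizes scaled by the trimmed mean of M-values (TMM). The labels tell the animals apart by an identifier only. Those of IVF female replicate 1 and IVF male replicate 2 begin with the same number, and whether it marks a shared dam, litter or cohort is not given in the sources used here. The p-values therefore measure the spread between these samples.

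A gene is said to be called, or to be higher or lower in males, where edgeR's quasi-likelihood test gave a Benjamini-Hochberg adjusted p-value under 0.05. That test called 270 autosomal genes between IVF males and IVF females, 2.11% of those tested. Of these, 115 were higher in males (0.9%) and 155 were lower (1.21%). In all 270 the 3 male libraries and the 3 female libraries did not overlap. Over all autosomal genes 2768 (21.7%) were free of overlap, 1510 with males higher (11.8%) and 1258 with males lower (9.85%). By the fitted values 250 called genes differed at least 2-fold, and 26 of the higher and 40 of the lower genes at least 16-fold. The median log2 difference, male minus female, was 2.39 among genes higher in males and -2.32 among genes lower in males, against 0.012 over all autosomal genes. Protein-coding genes made up 262 of the 270. Scaling by library size alone in place of TMM gave 88 higher and 203 lower, and moved the median of all genes to -0.097. The count fell to 143 without IVF female replicate 2, 176 without IVF male replicate 1, 172 without IVF male replicate 2 and 126 without IVF male replicate 3. It was 199 without IVF female replicate 1, with 177 of the 270 genes still called. With the 6 IVF libraries alone it was 187, with 165 of the 270 still called.

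**Figure D1:**
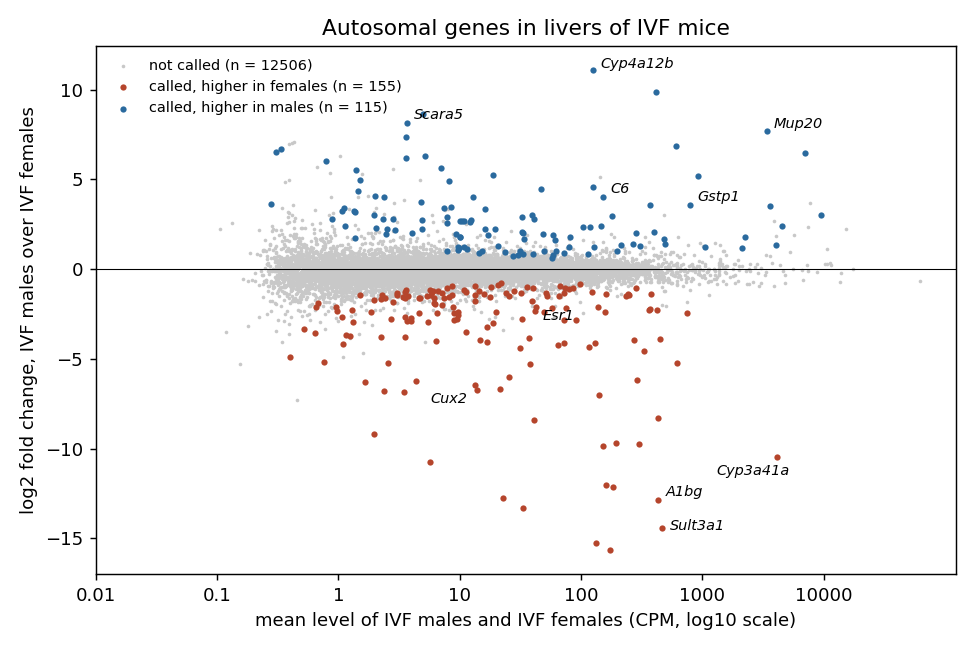
Each point is an autosomal gene, placed by its mean level in the 6 IVF libraries (CPM, log10 scale) and by its log2 fold change of IVF males over IVF females; blue and red points are the 115 and 155 called genes. The points of largest difference lie below the zero line, where Sult3a1 and A1bg sit near -14 and -13; for genes at or near 0 counts in 1 sex the fitted value depends on the prior count of the fit and is no measured fold.

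Many of the largest differences were in sulfotransferases, enzymes that attach sulfate to steroids, bile acids and drugs. Of 16 cytosolic sulfotransferase genes tested, 13 were lower in IVF males and 0 higher, against 1.21% and 0.9% of all autosomal genes. Their median log2 difference was -8.03, or -6.50 with genes that had no count in males set to a bound. Sult3a2 (chromosome 10, 33766424 to 33786704) had 153, 617 and 262 CPM in the IVF females and no count in any IVF male. Against a floor of 3 counts over the male group, this made its level at least 7431-fold higher in females (edgeR adjusted p = 0.00104). Its neighbour Sult3a1 (chromosome 10, 33857721 to 33879532) had 505, 1453 and 856 CPM in females and 0, 0.0492 and 0.05 CPM in males. With so few male counts the ratio of 29563 carried a 95% exact counting interval of 8184 to 244119 (edgeR adjusted p = 1.39e-05).

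The Sult2a genes, which sulfate bile acids and hydroxysteroids, showed the same order on chromosome 7. Sult2a2 had 145, 485 and 165 CPM in the IVF females and Sult2a5 51.4, 63.3 and 22.4 CPM. Sult2a6 had 5.94, 12.9 and 15.4 CPM in the IVF females and Sult2a3 8.16, 158 and 33.7 CPM. None of these 4 genes had a count in an IVF male. Levels in females were at least 5570.2-fold higher for Sult2a2, 1567-fold for Sult2a3, 808-fold for Sult2a5 and 240.0-fold for Sult2a6. Sult2a1 had 121, 591 and 262 CPM in females, with all male counts in 1 library (0, 0.197 and 0 CPM). Sult2a3 varied most among the females, and its call was lost without IVF male replicate 3 (edgeR adjusted p = 0.0572). The rest of the called family was Sult2a4, Sult2a7, Sult1a1, Sult1c2, Sult1e1 and Sult1d1. Sult1d1, which stood in a list of male-biased genes, was lower in males here, with a log2 difference of -1.41 ± 0.30 (SE). The Sult1d1 call was lost in every fit without 1 library except that without IVF male replicate 2, with edgeR adjusted p-values from 0.063 to 0.152, and also with the 6 IVF libraries alone. Sult1c2 lost its call without IVF female replicate 2 or any 1 IVF male (0.123 to 0.164), and Sult1e1 without any 1 IVF male (0.0601 to 0.084). From 9 to 12 members were called when 1 library was left out. Members of the Sult2a and Sult3a clusters are near-identical, and how reads that match several of them were treated is not given in the sources used here, so each gene's own level is uncertain.

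Papss2 makes the sulfate donor that all sulfotransferases use. It had 987, 415 and 397 CPM in the IVF females and 107, 177 and 82.8 CPM in the IVF males, a log2 difference of -2.29 ± 0.46 (SE, edgeR adjusted p = 0.0238). All female values lay above all male ones. The call was lost without IVF female replicate 1, IVF male replicate 1 or IVF male replicate 3, with edgeR adjusted p-values from 0.0618 to 0.121. Papss2 was named after its values were seen.

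A1bg belonged to the same extreme. A1bg encodes a secreted plasma glycoprotein and lies at chromosome 15, 60896859 to 60923012. It had 562, 1645 and 394 CPM in the IVF females against 0.137, 0.148 and 0.05 CPM in the IVF males, a ratio of 8872 (edgeR adjusted p = 1.14e-05). Its male values rested on a handful of reads per library.

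The promoters of Sult3a1 and A1bg are shown because they hold the palindrome TTCNNNGAA that STAT5 and BCL6 are known to bind. Of the 12 genes of largest difference in the other direction, 7 had a promoter to search, and none held it. The palindrome lies in 7.17% of promoters of tested autosomal genes, so 0 of 7 sets that direction apart in no way. The sequences are from RefSeq (GRCm38.p6), 250 bases before to 50 bases from the transcription start, 5′ to 3′ on the gene's strand. Capitals mark the palindrome, which begins at -109 in Sult3a1 (chr10:33857472-33857771, plus strand) and at -84 in A1bg (chr15:60921221-60921520, minus strand).
Sult3a1: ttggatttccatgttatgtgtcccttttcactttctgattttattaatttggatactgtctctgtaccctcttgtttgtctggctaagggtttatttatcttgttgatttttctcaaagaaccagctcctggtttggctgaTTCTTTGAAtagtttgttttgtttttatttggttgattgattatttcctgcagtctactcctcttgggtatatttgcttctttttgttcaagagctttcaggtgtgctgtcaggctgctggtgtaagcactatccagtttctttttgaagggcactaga
A1bg: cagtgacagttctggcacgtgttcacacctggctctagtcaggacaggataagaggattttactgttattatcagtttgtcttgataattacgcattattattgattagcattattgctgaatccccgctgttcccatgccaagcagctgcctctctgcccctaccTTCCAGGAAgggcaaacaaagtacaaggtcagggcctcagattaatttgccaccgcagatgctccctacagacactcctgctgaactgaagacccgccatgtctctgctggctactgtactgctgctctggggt

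Only 7 of the 12 genes most raised in males and 9 of the 12 most lowered had an entry in the promoter table. Among these, the palindrome was found in 0 of 7 and in 3 of 9, the third being Slc22a26. Over all called genes with an entry it lay in 11.5% of 157 promoters of genes lower in males, 6.84% of 117 promoters of genes higher in males and 7.17% of 12574 promoters of tested autosomal genes. A core of ONECUT1 and CUX2 sites, ATTGAT, read on both strands, lay in 12.1%, 10.3% and 4.41% of the same promoters. The FOXA core TGTTTAC lay in 7.64%, 1.71% and 2.71%, and TATAAA in 13.4%, 11.1% and 7.81%. Over all 32851 promoters of the table the shares were 8.30%, 7.54%, 3.65% and 13.6% in that order of motifs. Promoters of near-identical genes are counted separately, and a match of letters is no measured binding.

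Cytochrome P450 enzymes of families 1 to 4 oxidize drugs, steroids and fatty acids, and they moved in both directions. Of 63 tested, 13 were lower in IVF males and 5 higher, against 1.21% and 0.9% of all autosomal genes. The other 45 were not called, and the median log2 difference was -0.26. Cyp3a41a had 9162, 9730.0 and 5969 CPM in the IVF females and 4.46, 7.13 and 5.81 CPM in the IVF males (chromosome 5, 145694049 to 145720136). The log2 difference was -10.48 ± 0.76 (SE, edgeR adjusted p = 1.39e-05). Its neighbour Cyp3a16 (chromosome 5, 145436309 to 145469723) had 509, 1097 and 183 CPM in females and 0.481, 0.935 and 0.651 CPM in males, a log2 difference of -9.72 ± 0.96 (SE). The other P450 genes lower in males were Cyp3a44, Cyp2b9, Cyp2b13, Cyp2a4, Cyp2g1 and 6 genes of the Cyp2c group (Cyp2c37, Cyp2c38, Cyp2c39, Cyp2c40, Cyp2c68 and Cyp2c69). With 1 library left out, from 14 to 18 of the family were called. Cyp2c68 lost its call in 4 of these 6 fits, Cyp2c37 in 2 and Cyp2b9 in 1, with edgeR adjusted p-values of up to 0.139, 0.0764 and 0.073.

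On the male side, both Cyp4a12 genes, fatty acid hydroxylases that also make vasoactive lipids, had the largest called differences in the direction of males. Cyp4a12b (chromosome 4, 115411624 to 115439034) had 304, 171 and 284 CPM in the IVF males and 0, 0.0831 and 0.171 CPM in the IVF females. The log2 difference was 11.10 ± 0.60 (SE, edgeR adjusted p = 2.09e-06). Cyp4a12a (chromosome 4, 115299046 to 115332815) had 849.6, 670.5 and 955 CPM in males and 0.891, 0.208 and 1.58 CPM in females, a log2 difference of 9.84 ± 0.89 (SE). The lowest male value of each gene lay far above its highest female value. Cyp2d9, a steroid hydroxylase, Cyp2u1 and Cyp2c67 were the other P450 genes higher in males, with log2 differences of 5.21 ± 0.85, 3.33 ± 0.56 and 1.66 ± 0.32 (SE). The Cyp2c67 call was lost without IVF female replicate 1 or 2 or IVF male replicate 1 or 3, with edgeR adjusted p-values from 0.0689 to 0.0931. Cyp7b1, an oxysterol hydroxylase of bile acid synthesis outside these families, had 715, 658 and 684 CPM in males and 55.8, 41 and 77.6 CPM in females. The ratio was 11.6 (edgeR adjusted p = 0.000117).

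**Figure D2:**
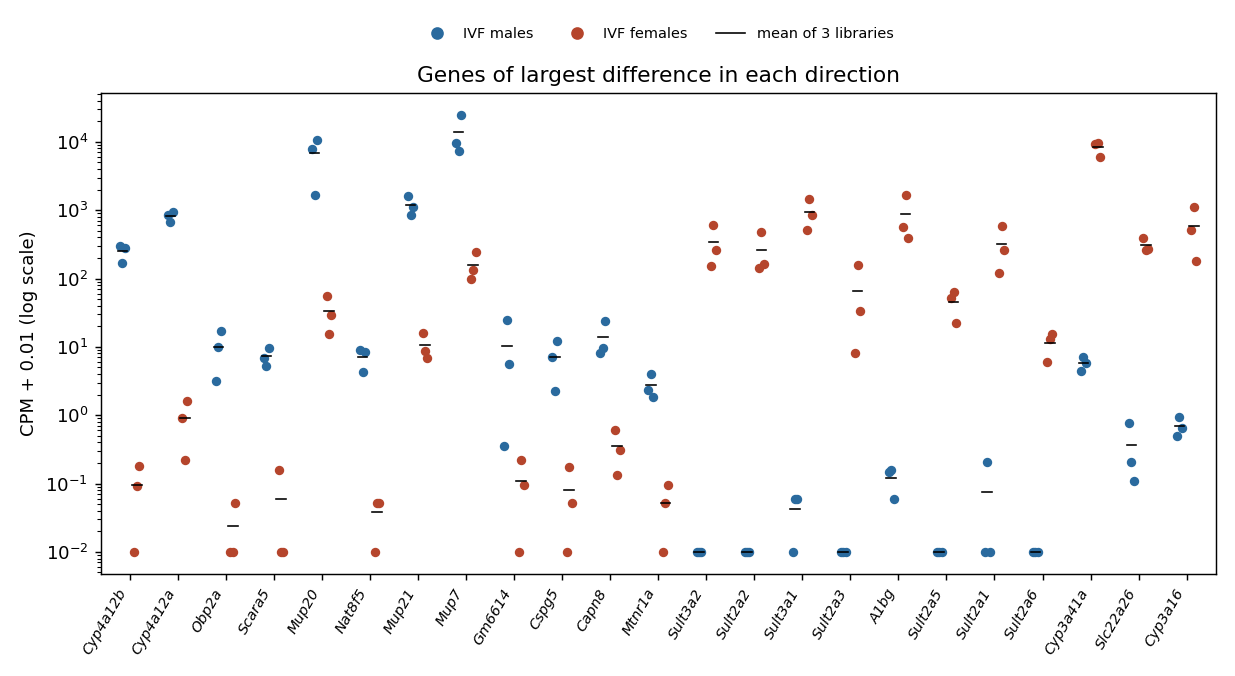
The vertical axis is the level in each library (CPM + 0.01, log scale) of genes of largest difference, 12 higher in males and 11 lower; blue points are the 3 IVF males, red points the 3 IVF females and bars their means. Genes were chosen among those without overlap between blue and red, so its absence here follows from the choice. Points on the lowest line had no count.

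Major urinary proteins are lipocalins that the male liver secretes to carry pheromones into the urine. Of 18 Mup genes tested, 9 were higher in IVF males and 0 lower, against 0.9% and 1.21% of all autosomal genes. The median log2 difference was 2.40. Mup20, also called darcin, had 7863, 1671 and 10759 CPM in the IVF males and 55.1, 15.2 and 29.5 CPM in the IVF females (chromosome 4, 62050234 to 62054158). Its log2 difference was 7.68 ± 0.90 (SE, edgeR adjusted p = 0.000764), and IVF male replicate 2 was the lowest male. Mup21 (chromosome 4, 62147932 to 62150863) had 1622, 859 and 1120.4 CPM in males and 16.2, 8.69 and 6.88 CPM in females, a log2 difference of 6.85 ± 0.45 (SE). Mup7 (chromosome 4, 60066469 to 60070475) had 9605, 7424 and 24906 CPM in males and 98.1, 134 and 246 CPM in females, a log2 difference of 6.45 ± 0.91 (SE). The other called members were Mup3, Mup5, Mup6, Mup10, Mup12 and Mup15, with log2 differences from 1.80 for Mup10 to 3.49 for Mup15. Between 7 and 9 members were called when 1 library was left out. Mup6 lost its call in 5 of these 6 fits and Mup10 in 3, with edgeR adjusted p-values of up to 0.115 and 0.0754. These genes share much of their sequence, so the split of reads among them is uncertain.

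Promoters of pairs from the Mup and Cyp3a clusters are shown side by side because both hold the ATTGAT core although the genes differ in opposite directions between the sexes. They were chosen after their values were seen. The build, source and window are as above, and capitals mark the core, read here as ATCAAT because it lies on the opposite strand. It begins at -82 and -19 in Mup7 (chr4:60070426-60070725, minus strand), at -156 and -94 in Mup21 (chr4:62150792-62151091, minus strand), at -71 in Cyp3a41a (chr5:145720087-145720386, minus strand) and at -75 in Cyp3a16 (chr5:145469674-145469973, minus strand).
Mup7: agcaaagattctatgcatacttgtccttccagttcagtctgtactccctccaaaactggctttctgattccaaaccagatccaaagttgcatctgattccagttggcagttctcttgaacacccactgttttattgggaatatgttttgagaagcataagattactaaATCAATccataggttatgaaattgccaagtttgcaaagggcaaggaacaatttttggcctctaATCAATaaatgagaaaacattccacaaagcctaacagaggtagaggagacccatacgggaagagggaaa
Mup21: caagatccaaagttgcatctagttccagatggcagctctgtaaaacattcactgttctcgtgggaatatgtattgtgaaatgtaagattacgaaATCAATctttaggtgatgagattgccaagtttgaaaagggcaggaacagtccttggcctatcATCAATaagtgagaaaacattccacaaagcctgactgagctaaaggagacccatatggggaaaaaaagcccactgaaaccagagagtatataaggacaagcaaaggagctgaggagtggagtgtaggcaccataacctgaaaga
Cyp3a41a: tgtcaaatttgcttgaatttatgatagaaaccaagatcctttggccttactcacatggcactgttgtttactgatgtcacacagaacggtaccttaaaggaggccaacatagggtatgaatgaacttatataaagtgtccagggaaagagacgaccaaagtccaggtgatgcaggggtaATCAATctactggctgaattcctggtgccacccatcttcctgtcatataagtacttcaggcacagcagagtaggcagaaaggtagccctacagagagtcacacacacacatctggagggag
Cyp3a16: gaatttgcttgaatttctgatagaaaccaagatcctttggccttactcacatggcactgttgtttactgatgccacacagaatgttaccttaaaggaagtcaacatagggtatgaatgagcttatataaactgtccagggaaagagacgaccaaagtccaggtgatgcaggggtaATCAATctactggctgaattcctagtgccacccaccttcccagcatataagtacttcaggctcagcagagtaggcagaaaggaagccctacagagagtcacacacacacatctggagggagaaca
Aligned, the Cyp3a promoters had 280 identical bases of 296 and the Mup promoters 185 of 223. The start sites of Mup7 and Mup21 in the table thus fall at different places in a related sequence.

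Other genes of large difference had low levels in both sexes. Scara5, a ferritin receptor, had 6.87, 5.26 and 9.76 CPM in the IVF males and 0.148, 0 and 0 CPM in the IVF females (edgeR adjusted p = 0.000992). Obp2a, a lipocalin, had 3.16, 9.89 and 17 CPM in males and 0, 0 and 0.0427 CPM in females, and its call was lost without IVF female replicate 3 (edgeR adjusted p = 0.0507). Nat8f5, an acetyltransferase-like gene, had 8.86, 4.23 and 8.46 CPM in males and 0, 0.0416 and 0.0427 CPM in females. Its relative Nat8 had 17.8, 14.9 and 13.4 CPM in males and 2.08, 0.956 and 1.41 CPM in females, and these 2 were the called members among 10 selenium-binding and Nat8-type genes tested. Cspg5, a proteoglycan, and Capn8, a calpain protease, had log2 differences of 6.21 ± 0.86 and 5.62 ± 0.65 (SE). Mtnr1a, a melatonin receptor, had a log2 difference of 5.50 ± 0.90 (SE), and its call was lost without IVF female replicate 2 (edgeR adjusted p = 0.0549). Gm6614 had 0.343, 24.6 and 5.61 CPM in males and 0, 0.208 and 0.0855 CPM in females, so that 1 male was close to the highest female. Its call was lost without any 1 library other than IVF male replicate 1, with edgeR adjusted p-values from 0.0765 to 0.145.

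Genes of the growth hormone pathway itself were compared next. Of 25 genes of growth hormone and STAT5 signalling tested, 1 was called, a share near that over all autosomal genes (2.11%), and the median log2 difference was -0.27. The called gene was Prlr, the prolactin receptor, a relative of the growth hormone receptor. Prlr (chromosome 15, 10177238 to 10349180) had 779, 552 and 506 CPM in females and 148, 104 and 134 CPM in males, a log2 difference of -2.25 ± 0.26 (SE, edgeR adjusted p = 0.000694). The growth hormone receptor Ghr had 682, 876 and 724 CPM in males and 688, 638 and 544 CPM in females, a log2 difference of 0.29 ± 0.21 (SE, edgeR adjusted p = 0.584). Stat5b had 51.4, 58.8 and 28.5 CPM in males and 31.6, 69.6 and 58.5 CPM in females, and the groups overlapped. Among targets of the pathway, Igf1, the growth factor released by the liver, had 824, 889 and 947 CPM in males and 1563, 899.6 and 1255 CPM in females. Its log2 difference was -0.48 ± 0.27 (SE, edgeR adjusted p = 0.456). Cish and Socs2 are feedback inhibitors that each pulse of growth hormone induces. Cish had 0.755, 3.25 and 27.4 CPM in males and 10.1, 8.9 and 13.8 CPM in females. The male libraries thus spanned the whole female range and beyond on both sides. Socs2 had 8.51, 6.1 and 39.99 CPM in males and 14.1, 31.2 and 48.9 CPM in females. For both inhibitors IVF male replicate 3 was the highest male.

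Among 42 transcription and chromatin regulators tied to sex-biased expression in liver, 4 were lower in IVF males and 0 higher, with a median log2 difference of 0.12. Over all autosomal genes 1.21% were lower, and this list was written with earlier results of these data known. Cux2 (chromosome 5, 121856366 to 122050102) had 8.31, 37.6 and 36.5 CPM in the IVF females and 0.137, 0.443 and 0.15 CPM in the IVF males. Its log2 difference was -6.75 ± 0.85 (SE, edgeR adjusted p = 0.00119), and IVF female replicate 1 was the lowest female. Tox, an HMG-box factor (chromosome 4, 6686353 to 6991557), had 17.1, 17.8 and 12.7 CPM in females and 2.88, 2.12 and 1.65 CPM in males, a log2 difference of -2.84 ± 0.40 (SE). Trim24, a corepressor of nuclear receptors (chromosome 6, 37870811 to 37966296), had 82.2, 80.5 and 87.5 CPM in females and 13.2, 14.2 and 20.9 CPM in males, a log2 difference of -2.37 ± 0.33 (SE). Esr1, estrogen receptor alpha (chromosome 10, 4611593 to 5005614), had a log2 difference of -2.35 ± 0.23 (SE, edgeR adjusted p = 0.000175). These 4 calls held in every fit that left out 1 library. Bcl6 was not called. It had 85.6, 30.1 and 14.6 CPM in males and 10.4, 11.3 and 7.95 CPM in females, so the groups did not overlap, but its log2 difference of 2.13 ± 0.60 (SE) had an edgeR adjusted p of 0.102.

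**Figure D3:**
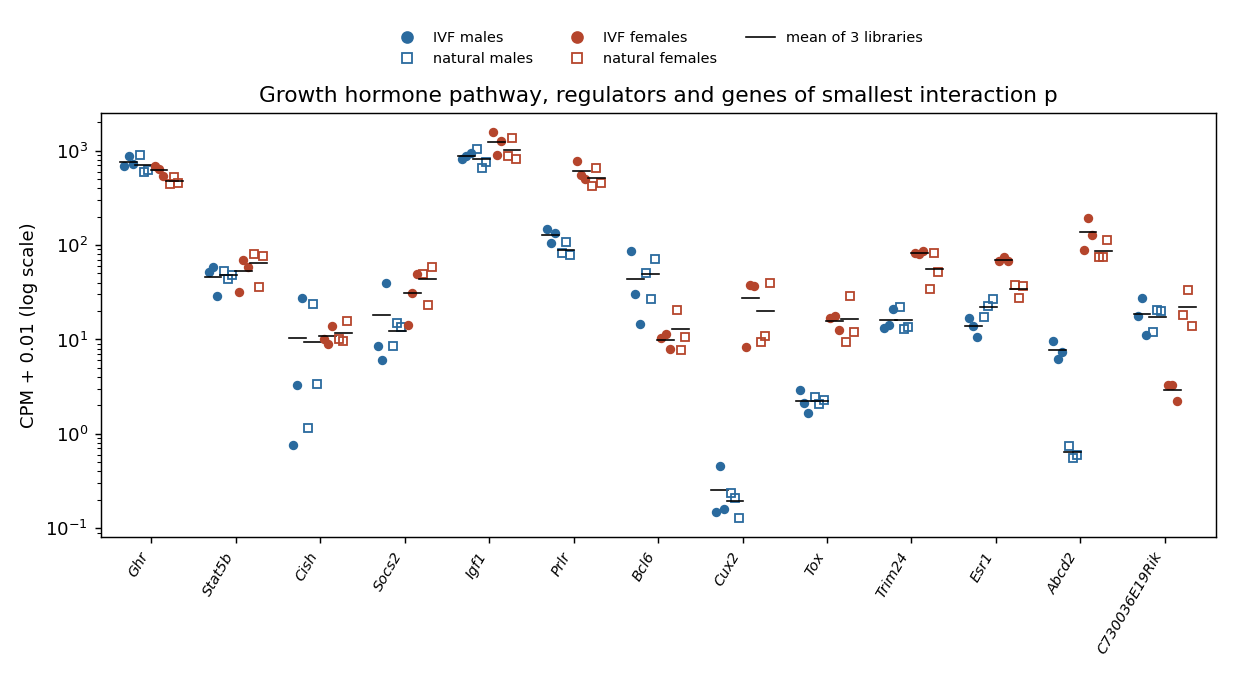
Levels in each of the 12 libraries (CPM + 0.01, log scale) are shown for genes of the growth hormone pathway, regulators and genes of smallest interaction p-value; filled circles are IVF and open squares natural mice, blue males and red females, and bars are means of 3 libraries. Prlr, Cux2, Tox and Trim24 separate the sexes in both modes of conception, whereas Ghr and Stat5b levels of the IVF sexes lie close together.

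Transport and conjugation genes followed. Over all autosomal genes 1.21% were lower in IVF males and 0.9% higher, the shares to set beside each family here. Of 22 organic anion and cation transporters tested, 3 were lower in IVF males and 0 higher. Slc22a26 (chromosome 19, 7781041 to 7802667) had 393, 259 and 266 CPM in females and 0.755, 0.197 and 0.1 CPM in males, a ratio of 899 (edgeR adjusted p = 1.39e-05). Its neighbour Slc22a27 had a log2 difference of -6.66 ± 0.51 (SE), and Slco1a4, which imports bile salts and drugs, one of -2.84 ± 0.59 (SE). The Slco1a4 call was lost without IVF female replicate 2 or 3 or IVF male replicate 1 or 3, with edgeR adjusted p-values from 0.0603 to 0.114. Of 21 glutathione transferases, which detoxify electrophiles, Gstp1, Gstp2 and Gsta1 were higher in males and Gstt3 lower. Gstp1 had 1629.7, 1005 and 1729.8 CPM in males and 118, 126 and 125 CPM in females, a log2 difference of 3.57 ± 0.38 (SE, edgeR adjusted p = 0.000341). The female libraries of Gstp1 agreed closely while the males varied. Gstp2 had 330.1, 220.5 and 417 CPM in males and 74.5, 24.9 and 24 CPM in females, and its edgeR adjusted p was 0.0661, 0.0579 and 0.0547 without IVF female replicate 2, IVF female replicate 3 and IVF male replicate 3. Without IVF female replicate 2 or IVF male replicate 3, 2 of the glutathione transferases were called. Gsta1 lost its call without IVF female replicate 1 or 2 or IVF male replicate 1 or 3, with edgeR adjusted p-values from 0.0743 to 0.113. Of 17 UDP-glucuronosyltransferases, Ugt2b5, Ugt2b35 and Ugt2b38 were higher in males, by log2 1.25, 1.28 and 1.37. Without IVF female replicate 2 none of the 17 was called, and Ugt2b5 had an edgeR adjusted p of 0.0605. The calls on Ugt2b35 and Ugt2b38 were each lost without any 1 of the 6 libraries and under scaling by library size alone. Without 1 library, edgeR adjusted p-values were 0.0635 to 0.105 for Ugt2b35 and 0.0607 to 0.14 for Ugt2b38.

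Called steroid dehydrogenases were higher in males. Of 16 hydroxysteroid dehydrogenases tested, Hsd3b5 and Hsd3b2 were higher in IVF males and 0 lower. Hsd3b5, which reduces steroids in the male liver, had 232, 246 and 245 CPM in males and 20.2, 1.83 and 8.98 CPM in females, a log2 difference of 4.60 ± 0.76 (SE, edgeR adjusted p = 0.00759). The male values of Hsd3b5 lay close together and the female values varied more. Hsd3b2 had a log2 difference of 1.77 ± 0.28 (SE). Akr1d1, a reductase of steroids and bile acid precursors, was lower in males by log2 -1.51 ± 0.31 (SE) and was the called member among 23 retinol dehydrogenases and aldo-keto reductases. Its call was lost without IVF female replicate 2 or 3 or IVF male replicate 1 or 3, with edgeR adjusted p-values from 0.0531 to 0.144. A single call among these 23 does not set them apart from all autosomal genes, of which 2.11% were called.

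Of 32 bile acid genes, Cyp7b1 and Scp2, a sterol carrier, were higher in IVF males, and Akr1d1, Slco1a4 and the exporter Abcc4 were lower. Over all autosomal genes 0.9% were higher and 1.21% lower. Cyp7a1, the rate-limiting enzyme of bile acid synthesis, had 152, 138 and 318 CPM in males and 427, 158 and 261 CPM in females, and the groups overlapped (edgeR adjusted p = 0.762). The Scp2 call was lost without IVF female replicate 1 or 3 or IVF male replicate 2 or 3, with edgeR adjusted p-values from 0.062 to 0.0732. Only 2 of these bile acid genes were called without IVF female replicate 3 or without IVF male replicate 3, and 3 without IVF female replicate 2 or IVF male replicate 1.

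Lipid genes differed one by one. Elovl3, which elongates fatty acids, was the called member among 29 genes of fatty acid synthesis, with 91.2, 146 and 31.1 CPM in the IVF males and 2.23, 5.28 and 4.15 CPM in the IVF females. Its log2 difference was 4.47 ± 0.70 (SE, edgeR adjusted p = 0.00566). Of 48 genes of fatty acid uptake and oxidation, 3 were lower in males and 0 higher. Acot3, a peroxisomal acyl-CoA thioesterase, had 118, 307 and 242 CPM in females and 10.1, 7.13 and 16 CPM in males. Abcd2, a peroxisomal transporter of very long chain fatty acids, had a log2 difference of -4.15 ± 0.32 (SE, edgeR adjusted p = 2.07e-05). The third was the fatty acid carrier Cd36, with a log2 difference of -2.18 ± 0.48 (SE). The Cd36 call was lost in every fit without 1 library except that without IVF female replicate 1, with edgeR adjusted p-values from 0.0645 to 0.183. Under limma voom, and with the 6 IVF libraries alone, 2 of the 48 were called. Vldlr, the receptor of very low density lipoprotein, was the called member among 29 apolipoprotein and lipoprotein genes. It had 58.2, 88.8 and 63.1 CPM in females and 4.46, 6.79 and 3.3 CPM in males, a log2 difference of -3.85 ± 0.56 (SE). A count of 1 called gene in 29, here and for fatty acid synthesis, is near the share over all autosomal genes (2.11%).

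Lists of central metabolism had few or no calls, and with 2.11% of all autosomal genes called such counts do not set these lists apart. An unadjusted p under 0.05 was found for 14.7% of all autosomal genes, and DESeq2 called 682 genes in all. Of 25 cholesterol genes, 0 were called by edgeR, 0 had an unadjusted p under 0.05 and DESeq2 called 0, with a median log2 difference of -0.28. Of 48 genes of amino acid breakdown and the urea cycle, 0 were called by edgeR, 10 had an unadjusted p under 0.05 and DESeq2 called 4, with a median of -0.40. Among 26 genes of glucose metabolism the called gene was Pfkfb3, which makes an allosteric activator of glycolysis. It had 18.1, 34 and 28.6 CPM in males and 10.5, 5.65 and 5.77 CPM in females, a log2 difference of 1.91 ± 0.39 (SE). Its call was lost without IVF female replicate 2 or 3 or IVF male replicate 2 or 3, with edgeR adjusted p-values from 0.0906 to 0.125. Of 38 cytosolic ribosomal protein genes, edgeR called 0 and DESeq2 1, and 1 had an unadjusted p under 0.05. Of 21 clock genes, both called 0, and 0 had an unadjusted p under 0.05.

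Secreted proteins other than Mup gave a few large differences. C6, a component of the complement membrane attack complex, had 298, 213 and 345 CPM in the IVF males and 20.6, 17 and 14.7 CPM in the IVF females (chromosome 15, 4727175 to 4814967). Its log2 difference was 4.04 ± 0.29 (SE, edgeR adjusted p = 1.39e-05). Of 29 complement genes, C6 was higher in males and C1qb, taken up with the macrophage markers, was lower. Hamp2, a gene related to the iron hormone hepcidin, had 556, 92.7 and 189 CPM in females and 1.92, 2.61 and 1.95 CPM in males, a log2 difference of -7.00 ± 0.85 (SE, edgeR adjusted p = 0.00101). IVF female replicate 1 held the highest Hamp2 level. It was the called member both among 35 acute phase genes and among 28 iron and haem genes, counts near the share over all autosomal genes (2.11%). Among 20 clade A serpins, Serpina9 and Serpina12 were higher in males and Serpina6, which carries glucocorticoids in blood, was lower. Serpina6 lost its call in every fit without 1 library except that without IVF female replicate 3, with edgeR adjusted p-values from 0.0832 to 0.115, and also with the 6 IVF libraries alone. Serpina9 lost its call without IVF female replicate 1 or 2 or IVF male replicate 3, with edgeR adjusted p-values from 0.0537 to 0.071. Serpina12, the adipokine vaspin, lost it in every fit without 1 library except that without IVF male replicate 1, with values from 0.0672 to 0.141. Among 28 collagens Col27a1 was higher in males, by log2 3.01 ± 0.44 (SE), and among 15 carboxylesterases Ces4a was, by log2 3.15 ± 0.56 (SE). With 2.11% of all autosomal genes called, such single calls do not set these families apart. Without IVF female replicate 2 or IVF male replicate 3, 0 carboxylesterases were called.

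**Figure D4:**
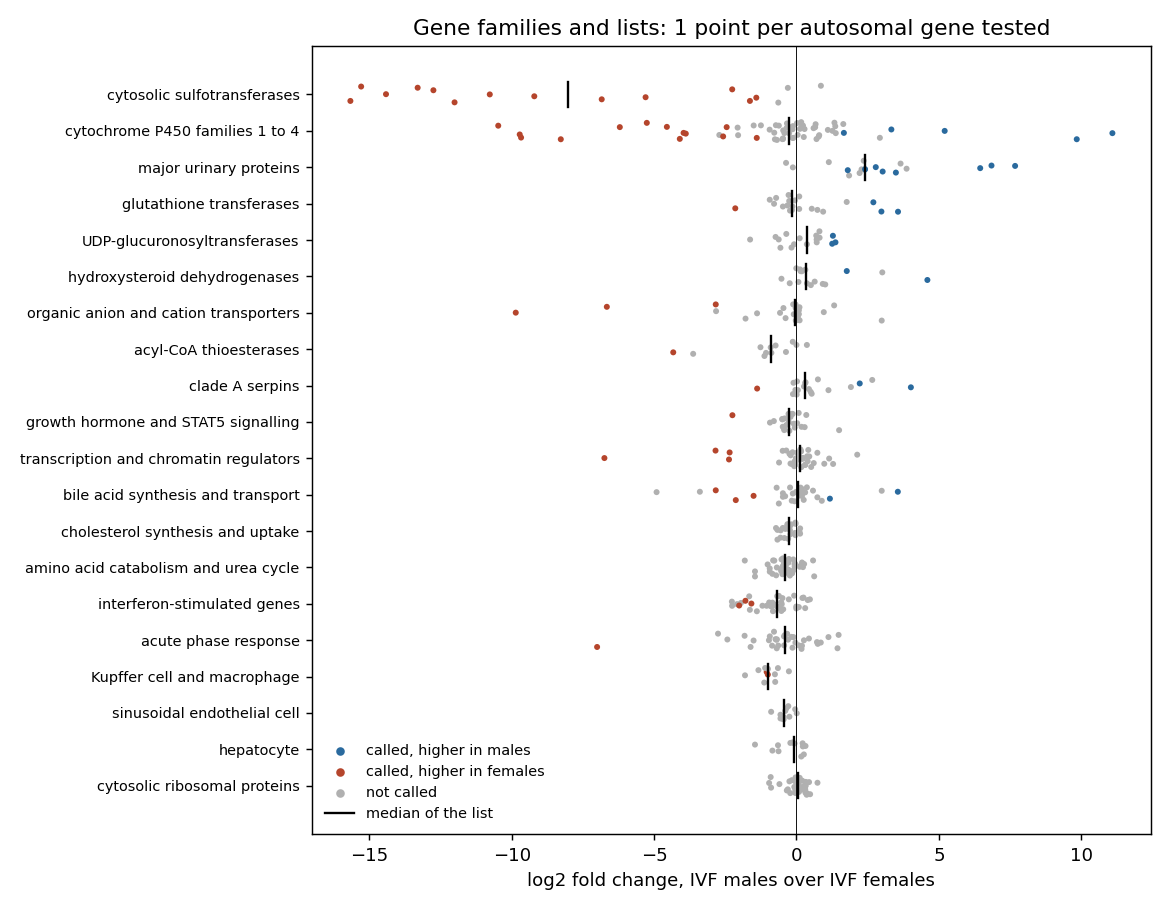
Each point is an autosomal gene of a family or list, placed by its log2 fold change of IVF males over IVF females, and black bars are list medians; blue and red mark called genes. Sulfotransferase points spread from near 0 to below -15 and Mup points reach 7.68, while ribosomal protein and hepatocyte marker points stay near 0; fitted values of genes with no count in 1 sex are no measured folds.

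Some immune genes were lower in IVF males. Among 38 interferon-stimulated genes, Gbp2, Gbp3 and Gbp7, guanylate-binding proteins that act against intracellular pathogens, were lower in males and 0 were higher, with a median log2 difference of -0.68. In 20 of the 38 all males lay below all females, against 9.85% of all autosomal genes. The share of all autosomal genes called lower was 1.21%. Gbp7 had 85.5, 43.1 and 54.1 CPM in the IVF females and 17.7, 18.7 and 16.1 CPM in the IVF males, a log2 difference of -1.79 ± 0.33 (SE, edgeR adjusted p = 0.0137). Gbp3 had 14.2, 12.6 and 7.65 CPM in females and 3.64, 2.02 and 2.85 CPM in males, a log2 difference of -2.01 ± 0.37 (SE). Of the 38 genes 0 were called without IVF male replicate 2 or without IVF male replicate 3, 1 without IVF male replicate 1 and 2 without IVF female replicate 2. The adjusted p of Gbp7 was then 0.0573, 0.0522 and 0.0764 without IVF male replicates 1, 2 and 3. That of Gbp3 was 0.0589, 0.0679 and 0.0748 without IVF female replicate 2, IVF male replicate 2 and IVF male replicate 3. That of Gbp2 lay between 0.0615 and 0.0696 without any 1 IVF male. DESeq2 called 10 of the 38, against 682 of all 12776 autosomal genes.

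Summed levels of markers of some other liver cells were lower in IVF males, as were those of hepatocytes. Hepatocyte sums were 110043 to 122231 CPM in IVF males and 137899 to 147621 CPM in IVF females. The 11 autosomal markers of Kupffer cells and macrophages summed to 447 to 628 CPM in IVF females and 232 to 385 CPM in IVF males, with none at 0 in either group. Of these 11, 2 were called, both lower in males, and the median log2 difference was -1.01. Clec4f, a lectin of Kupffer cells, had 122, 134 and 89.2 CPM in females and 57, 48.2 and 61.6 CPM in males (log2 difference -1.05 ± 0.21, SE). C1qb, a chain of complement C1q made by macrophages, had 59.2, 49.9 and 35.7 CPM in females and 31.2, 19.6 and 21.2 CPM in males (log2 difference -1.01 ± 0.23, SE). Neither was called without IVF female replicate 1 or 2 or IVF male replicate 2 or 3, with edgeR adjusted p-values from 0.0537 to 0.0933 for Clec4f and 0.115 to 0.189 for C1qb. Clec4f was not called without IVF male replicate 1 either (0.0747). Endothelial markers (12 genes) summed to 420 to 489 CPM in females and 314 to 363 CPM in males. Stellate cell and fibroblast markers (12 genes) summed to 466 to 534 CPM and 279 to 366 CPM, and those of B and plasma cells (7 genes tested) to 12.9 to 30.4 CPM and 4.87 to 8.10 CPM. T and NK cell markers (6 genes tested, 0 called by edgeR) summed to 2.61 to 5.94 CPM in females and 1.99 to 2.56 CPM in males. For these lists the male and female sums did not overlap, and no marker was at 0 in all libraries of a sex. However, edgeR called 0 of the 12 endothelial and 0 of the 12 stellate cell and fibroblast markers, 6 and 4 of which had an unadjusted p under 0.05, and DESeq2 called 1 and 3. Over all 12776 autosomal genes, 14.7% had such an unadjusted p in edgeR and DESeq2 called 682. Sums of cholangiocyte markers (7 genes tested) overlapped, with 34.5 to 55.8 CPM in females and 36.9 to 51.3 CPM in males. Those of neutrophils and monocytes (7 genes tested) overlapped too, with 5.79 to 11.1 CPM in females and 2.85 to 14.97 CPM in males. In bulk tissue, fewer cells of a type and less RNA per cell cannot be told apart. The part of these cells in the lower interferon-stimulated genes was not tested. Jchain, the joining chain of secreted antibodies, was called among the B and plasma cell markers with a log2 difference of -2.41 ± 0.48 (SE). Its call was lost without IVF female replicate 2 or 3 or IVF male replicate 2 or 3, with edgeR adjusted p-values from 0.0563 to 0.0953.

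Of 10 adipocyte markers only 3 were tested, and 2 of these, Car3 and Cidec, were higher in males, against 0.9% of all autosomal genes. Of the 10, 5 had no count in IVF females and 3 none in IVF males. Car3, a carbonic anhydrase abundant in male liver as well, had 4703, 6942 and 5758 CPM in males and 2379, 2840.3 and 1567 CPM in females (log2 difference 1.36 ± 0.28, SE). Cidec, a lipid droplet protein, had 5.22, 3.05 and 3.5 CPM in males and 1.04, 0.831 and 1.2 CPM in females (log2 difference 1.93 ± 0.43, SE). Cidec was not called in any of the 6 fits without 1 library, with edgeR adjusted p-values from 0.0654 to 0.175. Car3 lost its call without IVF female replicate 1 or 3 or IVF male replicate 2 or 3, with values from 0.0794 to 0.0976. Among 29 imprinted genes, Meg3, a noncoding RNA expressed from the maternal allele, was higher in males, with 23.8, 7.23 and 21.2 CPM against 1.93, 1.58 and 4.27 CPM in females. The Meg3 call was lost without IVF female replicate 1 or 2 or IVF male replicate 1 or 3, with edgeR adjusted p-values from 0.0532 to 0.0737. A count of 1 in 29 imprinted genes is near the share called over all autosomal genes (2.11%).

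Some called genes lay side by side. Taking called genes no more than 250 kb apart, 12 clusters of at least 3 genes held 47 of the 270. Of these, 8 clusters had 1 direction and 4 both. Each span runs from its first to its last called gene. Uncalled neighbours beyond the ends are thus left out, which by itself raises the share called within a span. The Sult2a cluster on chromosome 7 (13623967 to 14494230) held 7 called genes of 8 tested, all lower in IVF males. The Cyp2c cluster on chromosome 19 (39229254 to 40012243) held 8 of 9, with Cyp2c53-ps and Cyp2c67 higher and the other 6 lower in males. In a span of Mup genes on chromosome 4 (61831319 to 62150863) all 4 tested genes, Mup5, Mup20, Mup3 and Mup21, were higher in males. Of all 18 Mup genes tested, 9 were not called, and the called Mup7 lay outside this span. Gbp5, Gbp7, Gbp3 and Gbp2 on chromosome 3 (142493978 to 142638008) were 4 called genes of 5, all lower in males. The Gbp5 call was lost in 5 of the 6 fits without 1 library and that of Cyp2c53-ps in 4, with edgeR adjusted p-values of up to 0.141 and 0.15. On chromosome 5 (145436309 to 145805874), Cyp3a16, Cyp3a41a and Cyp3a44 were all lower in males. On chromosome 7 (26061497 to 26315088) the neighbours Cyp2b13, Cyp2b9 and Cyp2a4 were lower too. Opposite directions met on chromosome 3, where Hsd3b5 and Hsd3b2 were higher and Hao2, a hydroxyacid oxidase, was lower in males. The same held on chromosome 5, with Ugt2b38 higher and Sult1d1 and Sult1e1 lower. Of the 6 fits without 1 library, Ugt2b38 lost its call in 6, Sult1d1 in 5, Cyp2c67 in 4 and Sult1e1 in 3. By chromosome, the share of tested genes called ran from 0.564% on chromosome 11 to 4.79% on chromosome 19. Reads shared between near-identical neighbours can count 1 difference more than once.

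Lists of genes known for sex bias in mouse liver were set beside these calls. Of 65 female-biased genes tested, 41 were lower in IVF males and 0 higher, with a median log2 difference of -3.81. Of 60 male-biased genes tested, 28 were higher and 1, Sult1d1, was lower, with a median of 2.37. In fits without 1 library, 34 to 40 of the female-biased genes were lower and 22 to 27 of the male-biased genes higher, with fewest of both without IVF male replicate 3. Without IVF female replicate 1 the counts were 40 and 26. Of these fits, only that without IVF male replicate 2 kept the Sult1d1 call. The lists were written with earlier results of these data known, so they are not independent evidence of a direction. All fixed lists together covered 101 of the 270 called genes, and 169 belonged to none.

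The natural males and females show how far this pattern is that of IVF mice. The same test called 221 autosomal genes between natural males and natural females, or 1.73% of those tested, with 113 higher in males (0.884%) and 108 lower (0.845%). Natural female replicate 2, the smallest natural library, held 8056230 counts. Its log2 levels correlated with those of the other natural females at r = 0.938 and 0.933, against 0.973 for the other pair. Both comparisons called 139 genes, all in the same direction. That is 51.5% of the IVF list and 62.9% of the natural list. The sign was the same in natural mice for 266 of the 270 genes called in IVF mice. The other 4 were C730036E19Rik, Adamtsl1, Sdc3 and Mmp27, of which Adamtsl1 and Mmp27 lost their call in 5 of the 6 fits without 1 library and Sdc3 in 4. The 2 comparisons use separate libraries, though the model shares 1 estimate of the spread. The test of the difference itself, the sex difference in IVF mice minus that in natural mice, called 0 of 12776 genes (0%) in edgeR. No gene had an adjusted p below 0.314. An unadjusted p under 0.05 was found for 490 genes (3.84%). DESeq2 called 9 genes. Genes called in 1 comparison only, 131 in IVF and 82 in natural mice, are therefore not shown to differ between modes of conception.

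The 4 genes of smallest unadjusted interaction p were Abcd2, Esr1, C730036E19Rik and Tmem51os1. Esr1 had 67.2, 74.3 and 68.5 CPM in IVF females, 16.8, 14 and 10.5 CPM in IVF males, 37.9, 27.6 and 37.2 CPM in natural females and 17.4, 22.6 and 26.9 CPM in natural males. The sexes were apart in both modes of conception, further so in IVF mice. Its log2 sex difference was -2.35 ± 0.23 in IVF mice and -0.62 ± 0.22 in natural mice (SE). The interaction was -1.73 ± 0.31 (SE), with an unadjusted p of 0.00014 and an adjusted p of 0.878 in edgeR. Abcd2 had 9.61, 6.2 and 7.31 CPM in IVF males and 0.731, 0.549 and 0.593 CPM in natural males, against 88.9, 191 and 128 CPM in IVF females and 75.2, 74.1 and 112 CPM in natural females. Its log2 sex difference was -4.15 ± 0.32 after IVF and -7.11 ± 0.38 after natural conception (SE), an interaction of 2.96 ± 0.44 (SE, edgeR adjusted p = 0.314). Females of both kinds overlapped for Abcd2 and males did not.

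C730036E19Rik, a gene of unassigned function on chromosome 1 (151138034 to 151142345), had 17.5, 27.4 and 11 CPM in IVF males and 3.27, 3.28 and 2.22 CPM in IVF females. In natural mice it had 11.9, 20.4 and 20 CPM in males and 18.4, 33.7 and 13.9 CPM in females. The IVF females thus lay below all the other groups. The interaction was 3.01 ± 0.57 (SE, edgeR adjusted p = 0.878). Tmem51os1, an antisense transcript of Tmem51, had 1.3, 0.246 and 0.5 CPM in IVF males and 0.297, 0.166 and 0.256 CPM in IVF females. In natural mice it had 0.0457, 0.0499 and 0.119 CPM in males and 1, 0.599 and 0.579 CPM in females, levels of a few reads per library. Its interaction was 4.75 ± 0.95 (SE, edgeR adjusted p = 1). Whether counting used strand is not given in the sources used here, so reads of Tmem51 and of its antisense transcript cannot be told apart.

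Some lists had medians on opposite sides of 0 in the 2 comparisons. For 38 interferon-stimulated genes the median log2 sex difference was -0.68 in IVF and 0.21 in natural mice. For 35 acute phase genes it was -0.41 and 0.57, and for 25 cholesterol genes -0.28 and 0.94. The interaction called 0 members of these lists, and the difference between the medians was not tested. The 11 markers of Kupffer cells and macrophages summed to 449 to 549 CPM in natural females and 401 to 454 CPM in natural males, which overlapped, unlike in IVF mice. Endothelial sums overlapped too, at 403 to 449 CPM in natural females and 352 to 431 CPM in natural males. Stellate cell and fibroblast sums did not overlap, at 403 to 480 and 279 to 397 CPM. Nor did those of B and plasma cells, at 6.83 to 13.7 and 5.34 to 6.17 CPM.

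**Figure D5:**
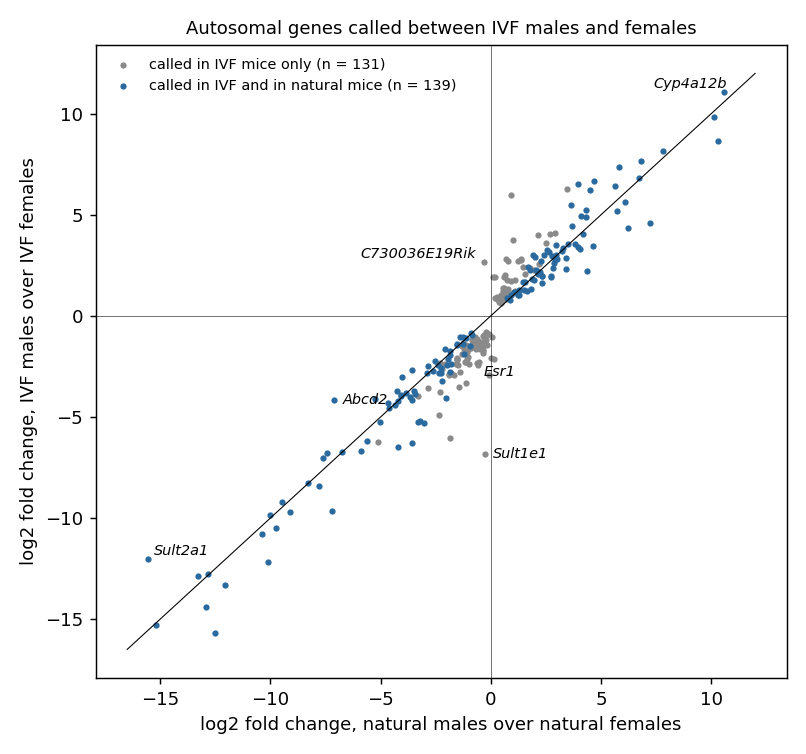
Each point is 1 of the 270 autosomal genes called between IVF males and IVF females, placed by its log2 sex difference (males over females) in natural mice on the horizontal and in IVF mice on the vertical axis; the line marks equal values. The 139 blue points were also called in natural mice, the 131 grey points were not, and Esr1, Abcd2, C730036E19Rik and Sult1e1 lie away from the line.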

How the data were processed

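Liver messenger RNA of 12 mice aged 39 weeks was measured, 3 per sex after IVF and 3 per sex after natural conception. Per the submitters' processing notes, reads were trimmed with Trimmomatic 0.32, aligned with STAR 2.3.0e and counted with featureCounts 1.5.0, with the build mm10. The gene annotation, the strand setting and the handling of multi-mapping reads are not given in the sources used here. The deposited values were whole-number counts per gene symbol, 1 column per library, and columns were matched to samples by their titles. No column was left unused. Total counts of the 6 IVF libraries are given with the results.

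Counts were tested with edgeR 4.0.16 (R 4.3.3): filterByExpr by group, TMM, 1 quasi-likelihood model over all 12 libraries with a mean per group, and Benjamini-Hochberg adjustment over 13204 genes. Genes of X, Y and no autosome were then left out. A gene was called at an adjusted p-value under 0.05. Standard errors are the log2 difference divided by the root of the F statistic. Replicate numbers follow accession order and pair no samples. Within a group, libraries differed beyond sampling noise (chi-square per degree of freedom of at least 80.7), so none was counted as a repeat. A ratio is that of summed counts over library sizes. With no count in a group it is a lower bound against 3 counts over the group, and with 1 to 3 counts it carries a 95% exact interval, which covers counting error only. A count of 0 allowed up to 0.439 CPM in the smallest IVF library and 0.136 CPM in the largest.

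Positions are from GENCODE M21 (GRCm38), or RefSeq GRCm38.p6 where a symbol was missing there, and promoters from RefSeq GRCm38.p6. Of 24527 symbols, 23805 matched GENCODE, 282 a RefSeq symbol, 358 a RefSeq synonym, and 82 matched neither. Among called genes with groups that did not overlap and a mean of at least 50 scaled counts in the higher one, the 12 of largest difference in each direction and the 2 of largest difference in each list were named. Every called growth hormone gene or regulator and the 4 genes of smallest interaction p were named without these conditions. Some results are not reported here. Any other gene named was chosen after seeing its values, or is named among members of a list known for their role. The members and gene lists were chosen with earlier results of these data known. The code was tested on simulated data. Alternatives were other scalings and filters, DESeq2 1.42.0, limma 3.58.1 with voom, an adjusted p under 0.1, the 6 IVF libraries alone and each library left out in turn. Leaving out Rn45s was added after the data were seen.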

Additional observations from a re-analysis of the deposited data

How the results depend on the processing

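The count of 270 called genes stayed within 1.5 times under other scalings, both filters on low counts, limma voom, the 6 IVF libraries alone and without Rn45s, from 187 to 291. DESeq2 called 682, all 270 among them, with 274 higher and 408 lower in males, and an adjusted p under 0.1 gave 463. Fits without 1 IVF library gave 126 to 199 calls, of which 122 to 177 were among the 270. Without IVF female replicate 3 the split was 59 higher and 135 lower. The cause of these differences was not tested. The interaction gave 0 calls under every alternative except DESeq2, which called 9. Among 60 named genes called in IVF mice, 40 kept their call in every setting and 0 changed direction. Scaling by library size alone ended 3 calls (Cidec, Ugt2b38 and Ugt2b35), limma voom 1 (Gm6614) and the 6 IVF libraries alone 10, and fits without 1 library ended from 8 to 18. No paired analysis was possible because the groups compared share fewer than 2 numbers in the labels: the identifiers of 1 IVF female and 1 IVF male begin with the same number, and no others do. Near-identical genes and 3 libraries a group limit what single genes show, and at low levels a count of 0 in the shallowest library says little.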

Other observations

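Of the 270 called genes, 169 belonged to no list, 72 higher and 97 lower in IVF males, and 41 of them were called in every fit without 1 library. The genes below are from these 41 and were chosen after their values were seen. Exporters of drugs at the cell membrane differed in opposite directions. Abcg2 had 78.3, 62.7 and 91.9 CPM in the IVF males and 19.7, 21.1 and 18.5 CPM in the IVF females, a log2 difference of 1.97 ± 0.28 (SE). Abcb1a, which encodes a P-glycoprotein, had 1.78, 1.72 and 3.6 CPM in males and 21.2, 13.1 and 16 CPM in females, a log2 difference of -2.80 ± 0.37 (SE). Aox3, an aldehyde oxidase of drug metabolism, and Ephx1, the microsomal epoxide hydrolase, were higher in males by log2 2.08 ± 0.26 and 1.38 ± 0.23 (SE). Both had all males above all females.

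Genes with roles outside detoxification differed as well. Nt5e, the ectonucleotidase CD73 that makes adenosine, had 81.3, 145 and 143 CPM in females and 7.96, 6.89 and 5.2 CPM in males, a log2 difference of -4.21 ± 0.33 (SE, edgeR adjusted p = 2.23e-05). Rtn4, a reticulon of the endoplasmic reticulum, had 122, 134 and 122 CPM in females and 32.7, 11 and 10.1 CPM in males (log2 difference -2.82 ± 0.43, SE). Bche, butyrylcholinesterase, was lower in males by log2 -1.47. Lama3, a laminin chain, had 19.8, 7.28 and 20.7 CPM in males and 0.594, 0.624 and 0.385 CPM in females (log2 difference 4.91 ± 0.49, SE). Fitm1, which acts in lipid droplet formation, had 39.9, 17.7 and 15.1 CPM in males and 1.19, 0.374 and 2.74 CPM in females. Ide, the insulin-degrading enzyme, differed by little, with 148, 147 and 147 CPM in males and 86.8, 77.4 and 84.9 CPM in females, and was called all the same (edgeR adjusted p = 0.00697). Leukocyte genes such as Ptprc and Itgal, lower in males, were not among the 41, with edgeR adjusted p-values of up to 0.122 and 0.0719 without 1 library.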
